A study of Rattus norvegicus with 6 samples.

Results

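The Slc25 genes encode the mitochondrial solute carriers, and they were taken here as all genes whose name in the deposited expression table begins with Slc25a followed by a number. The table lists 22250 rat genes, of which 46 met this rule. Gene expression was measured by RNA-Seq of polyadenylated RNA from the left ventricular myocardium of 3 young donor hearts (hearts 3, 13 and 15, from rats of 10 weeks) and 3 aged donor hearts (hearts 3, 4 and 7, from rats of 1 year), all taken on postoperative day 1 after heterotopic heart transplantation. All donors were wild-type male Sprague-Dawley rats, and every heart had been arrested with and stored cold in University of Wisconsin solution and then placed in a young recipient, so both groups carried ischaemic storage, reperfusion and surgery. The comparison asks what differs with donor age after that shared procedure, and no heart before transplantation was analysed here. A graft on day 1 also holds blood cells of its recipient, and each library is a whole piece of muscle. Heart numbers count within a group, so young heart 3 and aged heart 3 are different animals.

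Carriers of this family are small proteins that span the inner mitochondrial membrane and exchange solutes which cannot cross it freely. They move ADP in and ATP out, bring in phosphate, fatty acids bound to carnitine, cofactors and iron, and shuttle reducing equivalents between cytosol and matrix. Heart muscle, which makes nearly all of its ATP in mitochondria, is known for high amounts of the muscle ADP/ATP carrier encoded by Slc25a4 and of the phosphate carrier encoded by Slc25a3.

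Slc25a4 (ENSRNOG00000010830) and Slc25a5 (ENSRNOG00000039980) encode ADP/ATP carriers of the same activity, Slc25a4 being the form of heart and skeletal muscle and Slc25a5 a form of most other and of dividing cells. In these hearts their levels behaved differently, as described below, so the bases before their start sites are shown. RefSeq's rat assembly GRCr8 gives a promoter window for 39 of the 46 members, and the 250 bases before the start were read for each. The windows printed are chr16:52805271-52805520 for Slc25a4 and chrX:120897366-120897615 for Slc25a5, both on the plus strand, with capitals marking GGGCGG (the Sp1 box) and TATAA (the core of a TATA box) read on either strand.
Slc25a4: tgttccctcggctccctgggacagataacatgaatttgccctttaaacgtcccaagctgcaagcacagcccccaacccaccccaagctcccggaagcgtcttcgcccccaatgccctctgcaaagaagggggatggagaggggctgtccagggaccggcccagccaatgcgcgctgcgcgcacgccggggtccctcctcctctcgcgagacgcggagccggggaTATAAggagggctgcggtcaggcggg
Slc25a5: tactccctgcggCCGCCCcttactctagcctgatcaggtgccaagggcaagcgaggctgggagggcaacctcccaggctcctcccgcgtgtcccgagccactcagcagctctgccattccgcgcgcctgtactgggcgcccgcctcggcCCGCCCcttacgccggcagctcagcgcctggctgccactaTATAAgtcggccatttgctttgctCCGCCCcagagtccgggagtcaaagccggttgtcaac
The Slc25a4 window held 0 matches to GGGCGG and 1 to TATAA, and the Slc25a5 window held 3 and 1. Both windows were rich in G and C, at 65.6% and 66.8% of bases. Across the family, GGGCGG was found in 22 of 39 windows (56.4%) against 30.5% of 33365 rat promoter windows of the same length, and TATAA in 5 of 39 (12.8%) against 24%. The motif of nuclear respiratory factor 1, GCGCANGCG, was in 0 of 39 windows against 5.1% of all, the estrogen-related receptor core AAGGTCA in 1 (Slc25a34) against 4%, the GA-binding protein motif CCGGAAG in 6 (15.4%) against 7.29%, the cyclic AMP element TGACGTCA in 2 (5.13%) against 1.59%, and the Mef2 motif CTAAAAATA in 0 against 0.444%. Of the 12 lower members (named below) with a window, 6 held GGGCGG and 1 held TATAA, and of the 3 higher members with a window, 2 and 0. A match is a description of letters in this window and not a bound site.

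Counted reads per library ran from 21457509 to 24560869, and library sizes were adjusted by the TMM method (trimmed mean of M values) before counts were expressed as CPM, a share of the counted reads and the scale used between hearts below. Levels of different genes are compared only as FPKM, which also divides by gene length. The libraries did not separate evenly. For 29 of the 39 members tested (74.4%), young heart 15 lay nearer to the mean of the aged hearts than to that of young hearts 3 and 13 on the log2(CPM + 0.5) scale, and the same held for 69.7% of all 13784 genes tested. The muscle label was met in the sense that all 12 cardiomyocyte markers were read, but their summed level was 93996 and 104220 CPM in young hearts 3 and 13, 13674 CPM in young heart 15, and 597 to 8908 CPM in the aged hearts, with the lowest value in aged heart 3. Single markers differed from the sum. Nppa had a positive log2 fold change of 1.95 with overlapping groups. Myh7 (830 to 1039 CPM in young, 10.6 to 1843 CPM in aged hearts) and Tnni3 also overlapped. In 9 of the 12 markers all aged hearts lay below all young hearts, against 20.6% of all genes. Of the 12, 5 were past the limits given below and lower in aged hearts, against 19% of all genes. Neutrophil markers moved the other way, with 6 of 7 tested past the limits and higher, against 13.2% of all genes. Their summed level was 6.96 to 147 CPM in young against 334 to 1414 CPM in aged hearts, and Cxcr1 was at 0 in all hearts. Macrophage markers summed to 248.8 to 897 CPM in young and 928 to 2261 CPM in aged hearts. Of these, 4 of 8 were past the limits and higher, against the same 13.2% of all genes. T cell markers summed to 3.31 to 58.1 CPM in young and 70.4 to 108 CPM in aged hearts. Among them 1 of 4 tested was past the limits and higher, again against 13.2% of all genes. In young heart 15 and the aged hearts most of the T cell sum was Cd8a. This gene was at 0.89 to 55.8 CPM in young and 63.8 to 99.0 CPM in aged hearts and not past the limits. Cd3d, Cd3e and Cd3g reached at most 1.71 CPM and overlapped between the groups. The summed levels of endothelial (735 to 1143 against 661 to 979 CPM) and red blood cell markers (729 to 5781 against 246 to 3097 CPM) overlapped between the groups, with 0 of 4 past the limits and 1 of 5 past them and lower. Those of fibroblasts did not overlap (2503 to 3801 against 915 to 2113 CPM, 1 of 4 past the limits and lower), but they did without Col1a1 (927 to 1140 against 616 to 1350 CPM), and Pdgfra had a log2 fold change of 0.81. The adipocyte markers summed to at most 0.525 CPM, with Adipoq at 0. In bulk tissue, fewer cells of a type and less RNA per cell cannot be told apart, and the part of cell composition in the values below was not tested except where a value is given for it.

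Summed over its members, the family took less of the RNA in the aged hearts. This sum leans on a few members and does not describe each of them. Members other than Slc25a4, Slc25a3 and Slc25a5 made up 17.6 to 29.8% of family reads in young and 32.2 to 47.8% in aged hearts. Their own share of all counts was not compared. Reads on the 46 members made up 0.941%, 0.947% and 0.365% of all counts in young hearts 3, 13 and 15, and 0.222%, 0.348% and 0.32% in aged hearts 3, 4 and 7. Young heart 15 stood close to aged heart 4, although the groups did not overlap. The mean share was 0.751% ± 0.334 (SD, n = 3) in young and 0.297% ± 0.066 (SD, n = 3) in aged hearts. Leaving out the 13 genes encoded in mitochondrial DNA, which took 11.9 to 21.7% of counts in young and 6.56 to 10.3% in aged hearts, the shares were 0.942% ± 0.457 and 0.324% ± 0.0756 (SD, n = 3 each).

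A handful of carriers made up most of this RNA. Per length, Slc25a4 led with 2979 ± 1738 FPKM (SD, n = 3) in young hearts, followed by Slc25a3 with 1253 ± 563, Slc25a11 with 273 ± 135 and Slc25a5 with 215 ± 49.9, and no other member averaged over 100 FPKM. In aged hearts the order was Slc25a4 with 614 ± 333, Slc25a3 with 422 ± 136 and Slc25a5 with 305 ± 54.9 FPKM (SD, n = 3), and no other member averaged over 100. Neighbours in these orders overlapped in their mean ± SD except Slc25a3 and Slc25a11 in young hearts, but that SD is between hearts. Within each young heart Slc25a4 exceeded Slc25a3. In young heart 15 Slc25a5 (273 FPKM) exceeded Slc25a11 (118 FPKM). Aged heart 3 reversed the aged order, with Slc25a5 at 308, Slc25a3 at 265 and Slc25a4 at 232 FPKM. Within the family's summed FPKM, Slc25a4 took 58.9%, 58.0% and 39.6% in young hearts 3, 13 and 15, and 17.1%, 36.2% and 36.7% in aged hearts 3, 4 and 7. The share of Slc25a5 was 2.72%, 2.75% and 11.1% in the same young hearts, and 22.7%, 15.5% and 11.7% in the aged hearts. Slc25a3 held between 19.5 and 24.5% in all 6 hearts. So the make-up of the family moved away from Slc25a4 in the aged hearts, most in aged heart 3, and young heart 15 lay between the other young hearts and the aged ones.

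**Figure D1:**
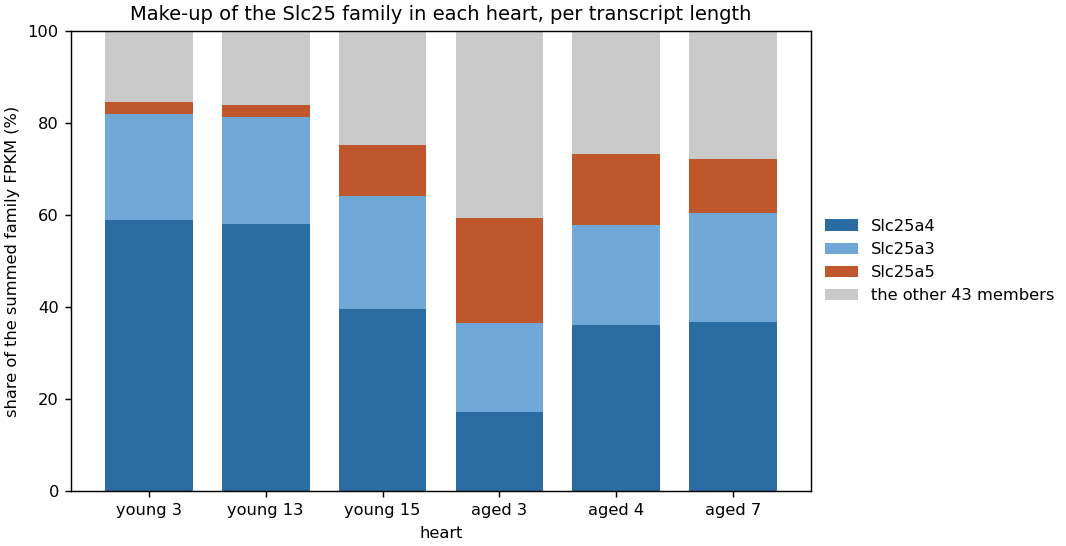
Share of the summed FPKM of the 46 Slc25 genes (y axis, %) taken by Slc25a4, Slc25a3, Slc25a5 and the other 43 members in each heart (x axis). The Slc25a4 part is 58.0 to 58.9% in young hearts 3 and 13, 39.6% in young heart 15 and 17.1 to 36.7% in the aged hearts.

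Of the 46 members, 39 passed the filter on low counts and were tested, together with all other genes, by edgeR's quasi-likelihood test of aged against young hearts. A gene is called past the limits when it differed by a factor over 1.5 or under 0.67 and its edgeR p-value before adjustment was under 0.05. The fold limits and the 0.05 are those of the study, and whether its p-value was adjusted is not given in the sources used here. By these limits 16 members were lower in aged hearts, which is 41.0% of those tested, against 19% of all 13784 genes. Another 4 were higher, 10.3% against 13.2% of all genes, and 19 were not past the limits. The median log2 fold change of the 39 members was -0.28, against 0.02 over all genes tested. The genes assigned to oxidative phosphorylation, which include subunits of the vacuolar proton pump, were lower in 78 of 105 tested (74.3%, median log2 fold change -1.69). Those of the citrate cycle were lower in 24 of 28 (85.7%, median -1.95). These figures describe the lists, and no test of one list against another was made.

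After Benjamini-Hochberg adjustment over all genes, edgeR gave 0 members and 0 genes of 13784 (0%) an adjusted p-value under 0.05, against 20 members and 4731 genes with an unadjusted p-value under 0.05. The adjusted p-values of the 16 lower members ran from 0.0916 to 0.128, and those of the 4 higher members from 0.0916 to 0.135. The value 0.0916 was the smallest that edgeR gave to any gene, and members with different unadjusted p-values shared it. On the same counts DESeq2 gave 15 of 39 members and 26.1% of all genes (3592) an adjusted p-value under 0.05, and limma-voom with quality weights gave 28 members and 61.1% of all genes (8416). With the fold limits, limma-voom called 18 members lower and 6 higher (27.7% and 26.8% of all genes) and DESeq2 called 17 and 4 (21.2% and 15.6%). edgeR with DESeq2 size factors called 16 and 4 (19.2% and 12.9%), without a filter on low counts 19 and 4 (16.2% and 11.5%) and with a mean of at least 1 CPM 17 and 4 (19.5% and 13.3%). Without young heart 15, edgeR gave 25 of 40 members tested and 48.3% of all genes an adjusted p-value under 0.05, with 19 members lower and 7 higher past the limits (24.2% and 26.9% of all genes). The 16 lower and 4 higher members called from all 6 hearts were among those 19 and 7. Leaving out aged heart 3 as well gave 19 and 7 again (26.2% and 27.2%). Without aged heart 3 the counts were 10 lower and 1 higher, against 14.7% and 7.47% of all genes. Scaling by library totals in place of TMM, which moved the median of all genes from 0.02 to 0.46, gave 11 lower and 9 higher members in place of 16 and 4 (10.5% and 22.8% of all genes). Slc25a15, Slc25a36, Slc25a40 and Slc25a46 were among the 5 members no longer lower on that scale, and the 5 that became higher were Slc25a17, Slc25a22, Slc25a25, Slc25a28 and Slc25a32.

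**Figure D2:**
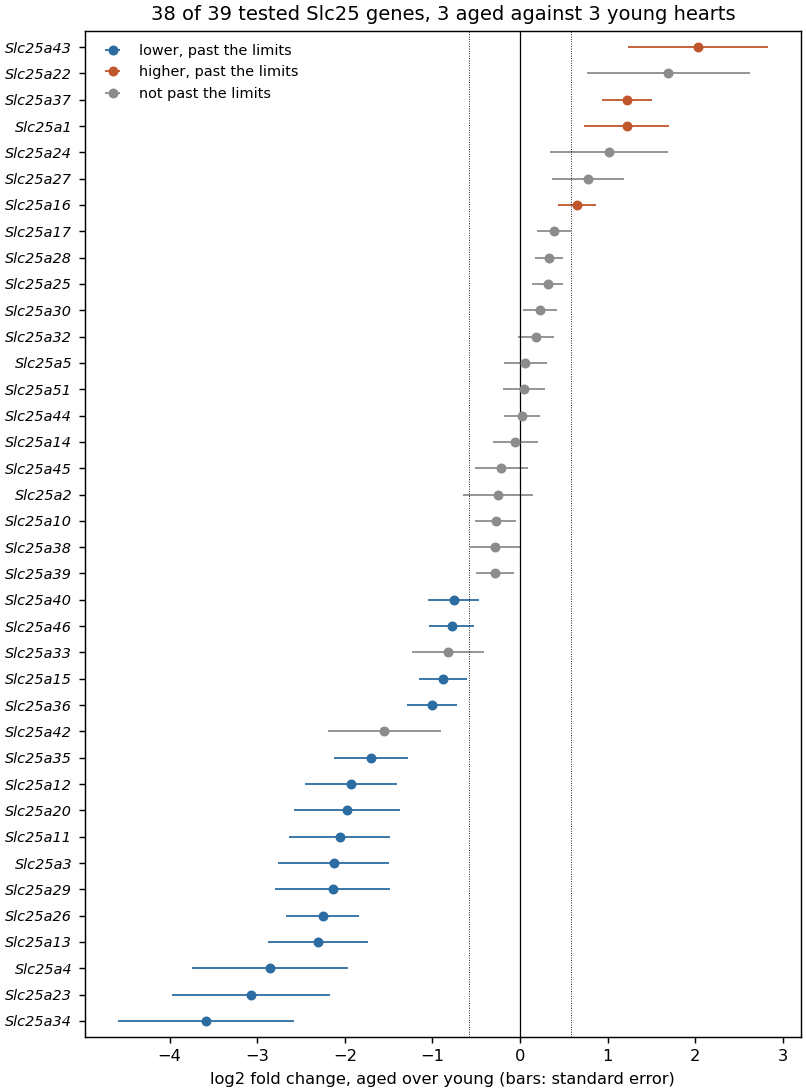
Log2 fold change of aged over young hearts (x axis, bars are standard errors from edgeR, n = 3 hearts per group) for 38 of the 39 tested Slc25 genes (y axis), with dotted lines at the fold limits of 0.67 and 1.5. Members lower past the limits run from -3.59 to -0.76 and the 4 higher from 0.65 to 2.03.

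In 14 of the 39 tested members all aged hearts lay below all young hearts (35.9%, against 20.6% of all genes), and in 7 all lay above (17.9%, against 21%). The 14 were all among the 16 lower members. The 7 were the 4 higher members and Slc25a17, Slc25a25 and Slc25a28. In all 16 lower members young heart 15 was the lowest of the young hearts, and in 13 of them aged heart 3 was the lowest of the aged hearts. These members were chosen by the same values, and the share of all genes with these orders was not counted. Young heart 15 lay nearer to the aged hearts in 69.7% of all genes, so its place is not particular to the family. Ranked by mean FPKM over the 6 hearts, 8 of the 10 most abundant tested members were among the lower ones, against 8 of the other 29. That order leans on the young hearts, where levels of the lower members were higher. Ranked in the aged hearts alone, 6 of the top 10 were among the lower members, against 10 of the other 29, and the 4 exceptions were Slc25a5, Slc25a39, Slc25a24 and Slc25a28.

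**Figure D3:**
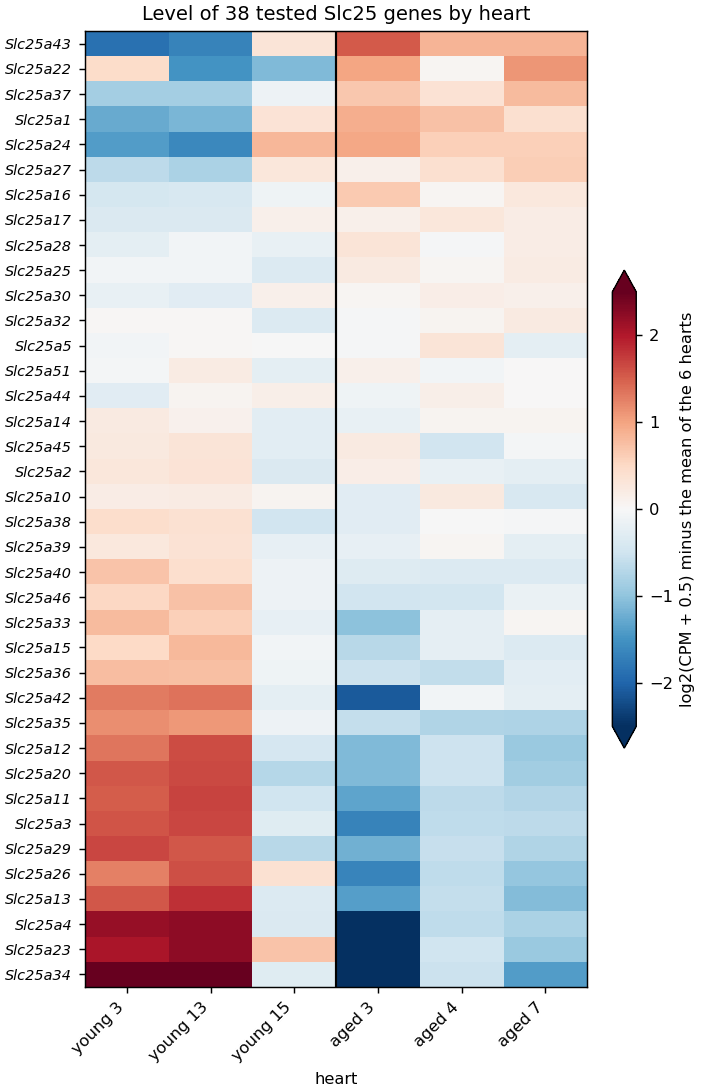
Level of 38 of the 39 tested Slc25 genes (rows, ordered by fold change) in each heart (columns), as log2(CPM + 0.5) minus the mean of the 6 hearts, with colours saturating at 2.5. Young hearts 3 and 13 look alike and contrast with the aged hearts in the top and bottom rows, aged heart 3 is the deepest blue in most bottom rows, and young heart 15 is nearer the aged mean in 29 of the 39 tested members.

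Among the ADP/ATP carriers, Slc25a4 was lower in aged hearts and Slc25a5 was not past the limits. Slc25a4 (chr16:49266903-49270698, Rnor_6.0) read 6704, 6975 and 1155 CPM in young hearts 3, 13 and 15, and 241, 954 and 861 CPM in aged hearts 3, 4 and 7. The young values fell apart into a high pair and young heart 15, which still lay above every aged heart. Its log2 fold change was -2.85 ± 0.89 (SE, edgeR adjusted p = 0.0982). Slc25a5 (chrX:123404518-123407645) read 365, 390 and 382 CPM in the young hearts and 378, 481 and 325 CPM in the aged hearts, and the groups overlapped fully. Its log2 fold change was 0.06 ± 0.24 (SE, edgeR adjusted p = 0.872), and 0.50 when libraries were scaled by their totals. The ratio of Slc25a5 to Slc25a4 in FPKM was 0.0462, 0.0474 and 0.28 in young hearts 3, 13 and 15 and 1.33, 0.428 and 0.32 in aged hearts 3, 4 and 7. Every aged heart had the higher ratio, by little between young heart 15 and aged heart 7. Only in aged heart 3 did Slc25a5 exceed Slc25a4. Slc25a31, the testis form, had 1 read in 1 heart and was not tested.

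The ratio within a heart does not depend on how libraries are scaled. For Slc25a5/Slc25a4 its log2 value, with 0.1 FPKM added, differed by 2.74 between aged and young hearts (two-sided exact permutation test, p = 0.1, the smallest that 3 hearts against 3 allow, 0.15 after adjustment over 6 pairs, 1 of them with too few reads to be compared). The same p-values held for 3 other pairs whose groups did not overlap, described with their carriers below.

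**Figure D4:**
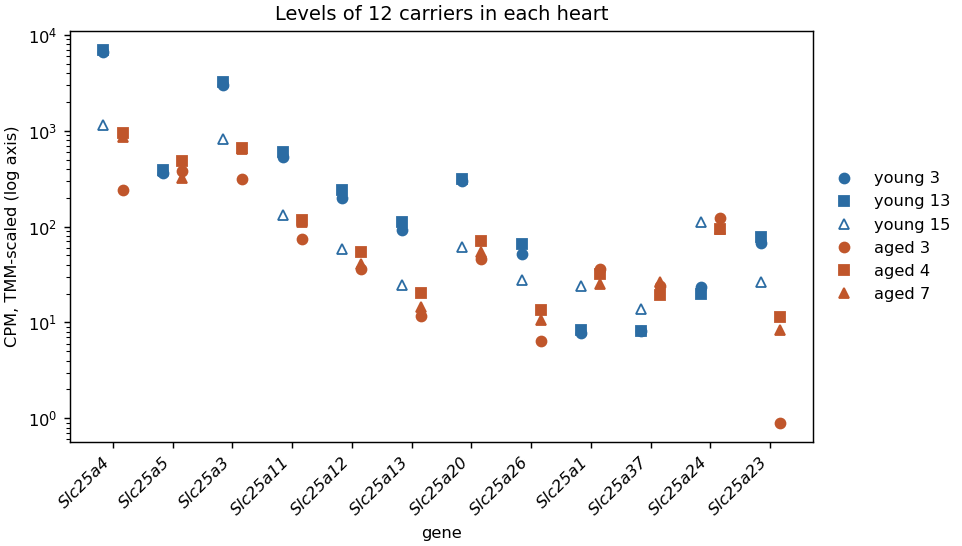
TMM-scaled CPM (y axis, log scale) of 12 carriers (x axis) in each of the 3 young (blue, young heart 15 as an open triangle) and 3 aged (orange) hearts. Slc25a4 spans 241 to 6975 CPM over the 6 hearts while Slc25a5 spans 325 to 481 CPM.

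The phosphate carrier Slc25a3, which brings in the phosphate for ATP synthesis, was lower in aged hearts. It read 3005, 3213 and 821 CPM in young hearts 3, 13 and 15 and 317, 653 and 639 CPM in aged hearts 3, 4 and 7. All aged hearts lay below all young hearts, with young heart 15 nearest to them. The fitted log2 fold change was -2.13 ± 0.63 (SE, edgeR adjusted p = 0.0942).

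The ATP-Mg/phosphate carriers, which are regulated by calcium and adjust the adenine nucleotide content of the matrix, gave unlike values. Slc25a23 read 67.5, 77.2 and 26.6 CPM in young hearts 3, 13 and 15 and 0.887, 11.3 and 8.24 CPM in aged hearts 3, 4 and 7. Its groups did not overlap and aged heart 3 stood far below the rest. On the log2 scale the fold change was -3.07 ± 0.90 (SE, edgeR adjusted p = 0.0936). For Slc25a24, the values were 23.4, 20.0 and 111 CPM in the young and 123, 95.0 and 95.0 CPM in the aged hearts. Young heart 15 lay among the aged hearts here, and the log2 fold change of 1.02 ± 0.68 (SE, edgeR adjusted p = 0.302) was not past the limits. Without young heart 15 it was 2.30 ± 0.20 (SE, edgeR adjusted p = 0.00133). Slc25a25 was 17.0 to 20.9 CPM in young and 22.6 to 25.5 CPM in aged hearts (log2 fold change 0.32), without overlap but not past the limits. The FPKM ratio of Slc25a24 to Slc25a23 was 0.192, 0.144 and 2.27 in young hearts 3, 13 and 15 and 64.5, 4.54 and 6.18 in aged hearts 3, 4 and 7. It was higher in every aged heart, with a mean log2 difference of 4.94 (exact permutation test, p = 0.1, adjusted 0.15). Slc25a41, next to Slc25a23 on chromosome 9 at a distance of 2.84 kb, read at most 0.206 CPM and was not tested.

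The carriers of the malate-aspartate shuttle, which brings the electrons of cytosolic NADH into the matrix, were all lower past the limits. Of all genes 19% were, as were 74.3% of the oxidative phosphorylation and 85.7% of the citrate cycle genes tested. Slc25a11, the exchanger of 2-oxoglutarate and malate, read 529, 600 and 131 CPM in young hearts 3, 13 and 15 and 74.4, 117 and 111 CPM in aged hearts 3, 4 and 7. Young heart 15 stood just above aged heart 4 and the groups did not overlap. The log2 fold change was -2.06 ± 0.58 (SE, edgeR adjusted p = 0.0923).
Slc25a12 and Slc25a13 exchange aspartate for glutamate, Slc25a12 being the form of heart, muscle and brain and Slc25a13 the main form of liver. Slc25a12 read 197, 243 and 58.5 CPM in the young and 36.2, 54.2 and 40.7 CPM in the aged hearts. Slc25a13 read 92.7, 112 and 24.5 CPM in the young and 11.7, 20.3 and 14.4 CPM in the aged hearts. In both genes young heart 15 was close above the aged hearts, which lay below all young hearts. The log2 fold changes were -1.93 ± 0.52 for Slc25a12 (SE, edgeR adjusted p = 0.092) and -2.31 ± 0.57 for Slc25a13 (SE, edgeR adjusted p = 0.0916). The FPKM ratio of Slc25a13 to Slc25a12 was 0.648, 0.637 and 0.579 in young hearts 3, 13 and 15 and 0.448, 0.516 and 0.488 in aged hearts 3, 4 and 7. This ratio was lower in every aged heart, with a mean log2 difference of -0.36 (exact permutation test, p = 0.1, adjusted 0.15). Its spread was small, with an SD of 0.0881 in young and 0.103 in aged hearts (log2 scale, n = 3 each). A stretch of 375 bases of the Slc25a13 gene lies opposite another gene with 0 to 1 reads.

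The other carriers of di- and tricarboxylates gave different values. Slc25a1, the citrate carrier that feeds cytosolic lipid synthesis, was higher. It read 7.68, 8.39 and 24.2 CPM in young hearts 3, 13 and 15 and 36.3, 32.1 and 25.4 CPM in aged hearts 3, 4 and 7, so that young heart 15 came close to aged heart 7. The change on the log2 scale was 1.22 ± 0.48 (SE, edgeR adjusted p = 0.135), and leaving out any heart other than young heart 15 ended the call, with log2 fold changes from 0.94 to 1.35. Slc25a10, the dicarboxylate carrier, read 20.0, 20.2 and 18.3 CPM in the young and 14.3, 20.8 and 13.1 CPM in the aged hearts. These groups overlapped, and its log2 fold change of -0.28 ± 0.23 (SE, edgeR adjusted p = 0.406) was not past the limits. Slc25a21, the oxoadipate carrier, failed the filter on low counts with 3.39, 4.96 and 0.207 CPM in the young and 0.131, 0.303 and 0.307 CPM in the aged hearts. Only young hearts 3 and 13 held more than 1 CPM of it.

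Fatty acids enter the matrix as acylcarnitines through Slc25a20. This carrier read 296, 314 and 60.6 CPM in young hearts 3, 13 and 15 and 46.1, 69.9 and 54.5 CPM in aged hearts 3, 4 and 7. Young heart 15 fell inside the aged range, so the groups overlapped although the gene was past the limits. This gave a log2 fold change of -1.98 ± 0.61 (SE, edgeR adjusted p = 0.097). It was not past the limits without aged heart 3 (-1.84) or without aged heart 7 (-1.94).

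Of the other 6 amino acid carriers tested, 2 were lower past the limits, against 19% of all genes. Slc25a29, which carries basic amino acids, read 19.9, 18.4 and 3.51 CPM in young hearts 3, 13 and 15 and 2.3, 3.83 and 3.33 CPM in aged hearts 3, 4 and 7. Its groups overlapped through young heart 15, and its log2 fold change was -2.14 ± 0.65 (SE, edgeR adjusted p = 0.0962), not past the limits without aged heart 3 (-1.95). The ornithine carrier Slc25a15 was at 26.3 to 48.6 CPM in young and 16.9 to 23.4 CPM in aged hearts, with a log2 fold change of -0.88 ± 0.27 (SE, edgeR adjusted p = 0.0979) that was not past the limits without young heart 13 (-0.66) or aged heart 3 (-0.74). Slc25a38, a glycine carrier needed for heme synthesis, Slc25a44, a carrier of branched-chain amino acids, and Slc25a2, a second ornithine carrier, had log2 fold changes between -0.28 and 0.03 and were not past the limits. The glutamate carrier Slc25a22 was low, at 1.94, 0.127 and 0.33 CPM in the young and 3.02, 1.33 and 3.33 CPM in the aged hearts. Young heart 3 overlapped the aged hearts, and the log2 fold change of 1.69 ± 0.93 (SE, edgeR adjusted p = 0.227) was not past the limits, but it was without young heart 3 (3.40). The other glutamate carrier, Slc25a18, reached at most 0.289 CPM and was not tested. It had 0 to 7 reads per heart, too few for a ratio to Slc25a22 to be compared.

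Of the 9 nucleotide and cofactor carriers tested, 3 were lower and 1 higher past the limits, against 19% and 13.2% of all genes. Slc25a26 imports S-adenosylmethionine, the methyl donor used in the matrix. It read 51.8, 66.4 and 27.7 CPM in young hearts 3, 13 and 15 and 6.4, 13.5 and 10.7 CPM in aged hearts 3, 4 and 7. Here young heart 15 stood well apart from the aged hearts. The fitted log2 fold change was -2.25 ± 0.42 (SE, edgeR adjusted p = 0.0916), with the lowest p-value of the family before adjustment.
Slc25a36, a pyrimidine nucleotide carrier, read 46.9, 46.7 and 25.4 CPM in young hearts 3, 13 and 15 and 18.8, 17.8 and 22.7 CPM in aged hearts 3, 4 and 7. The groups did not overlap, and the log2 fold change was -1.0 ± 0.28 (SE, edgeR adjusted p = 0.0923). Slc25a33, the other pyrimidine nucleotide carrier of the family, had a log2 fold change of -0.82 and was not past the limits (edgeR adjusted p = 0.194).
Slc25a42 and Slc25a16 are both linked to coenzyme A transport. Slc25a42 read 118, 123 and 40.1 CPM in the young and 10.6, 45.1 and 40.3 CPM in the aged hearts, where young heart 15 lay below aged hearts 4 and 7. Its log2 fold change of -1.55 ± 0.65 just missed the limits (SE, edgeR adjusted p = 0.147), while it was past them in DESeq2 (adjusted p = 0.0677). Slc25a16 went the other way, at 30.2 to 38.2 CPM in young and 42.4 to 64.9 CPM in aged hearts without overlap (log2 fold change 0.65 ± 0.22, SE, edgeR adjusted p = 0.104), and was not past the limits without young heart 3 (0.59), young heart 13 (0.61) or aged heart 3 (0.47). Slc25a17, the peroxisomal cofactor carrier, was at 23.7 to 33.4 CPM in young and 33.5 to 37.5 CPM in aged hearts (log2 fold change 0.39), not past the limits. Slc25a32, for flavin and folate, and Slc25a51, for NAD+, had log2 fold changes of 0.18 and 0.05.

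The mitoferrins import iron for heme and iron-sulfur clusters, Slc25a37 chiefly in erythroid cells and Slc25a28 in most cells. Slc25a37 was higher in aged hearts. It read 8.17, 8.14 and 13.8 CPM in young hearts 3, 13 and 15 and 24.3, 19.4 and 26.5 CPM in aged hearts 3, 4 and 7. The aged hearts lay above all young hearts, young heart 15 being between. On the log2 scale the fold change was 1.22 ± 0.29 (SE, edgeR adjusted p = 0.0916), and it was past the limits in every fit that left out 1 heart, with 1.09 to 1.56. The summed red blood cell markers overlapped between the groups, at 246 to 3097 CPM in aged and 729 to 5781 CPM in young hearts. Those of neutrophils and macrophages, given above, were higher in every aged heart than in any young heart. Among the aged hearts, Slc25a37 was highest in heart 7, which had the lowest macrophage sum. It was lowest in heart 4, which had the lowest neutrophil sum. The part of any cell type in the level of Slc25a37 was not tested.
Slc25a28 read 32.6, 36.9 and 34.1 CPM in the young and 48.2, 38.1 and 44.2 CPM in the aged hearts. All aged values lay above all young values, but the log2 fold change of 0.33 ± 0.16 (SE, edgeR adjusted p = 0.192) was within the fold limits. The FPKM ratio of Slc25a28 to Slc25a37 was 4.09, 4.64 and 2.57 in young hearts 3, 13 and 15 and 2.07, 2.04 and 1.74 in aged hearts 3, 4 and 7. It was lower in every aged heart, with a mean log2 difference of -0.91 (exact permutation test, p = 0.1, adjusted 0.15), and Slc25a28 remained the more abundant mitoferrin in all 6 hearts.

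**Figure D5:**
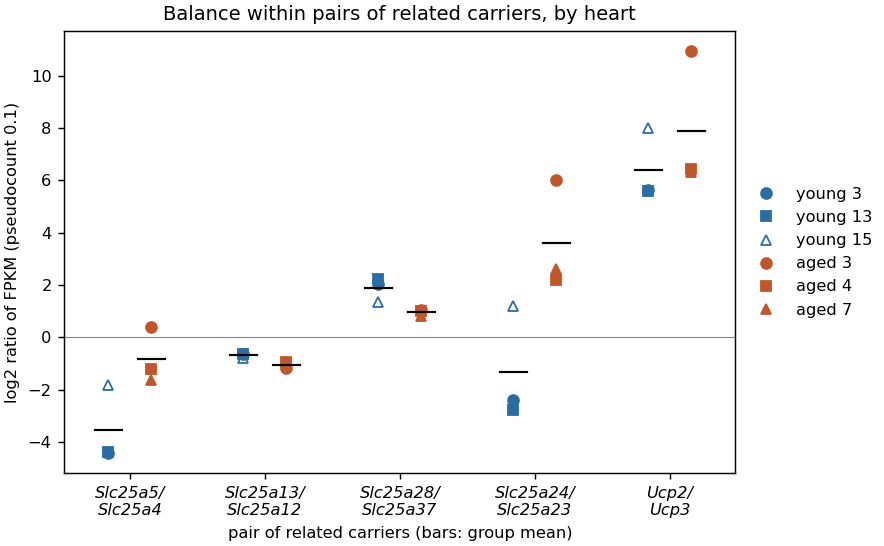
Log2 ratio of FPKM (y axis, 0.1 FPKM added) within 5 pairs of related carriers (x axis) in each young (blue, young heart 15 as an open triangle) and aged (orange) heart, with bars at group means. The groups do not overlap in the first 4 pairs, with differences of 2.74, -0.36, -0.91 and 4.94, and overlap in Ucp2/Ucp3.

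The glutathione carriers Slc25a39 and Slc25a40, which supply the matrix with its main thiol antioxidant, differed in level. Slc25a39 was the fifth most abundant tested member over the 6 hearts and was not past the limits, at 101 to 151 CPM in young and 98.7 to 122 CPM in aged hearts (log2 fold change -0.29 ± 0.22, SE, edgeR adjusted p = 0.366). Slc25a40 was at 5.66 to 10.5 CPM in young and 4.81 to 4.89 CPM in aged hearts (log2 fold change -0.76 ± 0.29, SE, edgeR adjusted p = 0.128). Leaving out any heart but young heart 15 ended the call on Slc25a40, with -0.76 to -0.54. That gene shares 10114 bases of its span with Rundc3b on the opposite strand, which had 3 to 22 reads.

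The uncoupling-protein-like carriers Slc25a14, Slc25a27 and Slc25a30 were not past the limits, with log2 fold changes of -0.05, 0.77 and 0.22. Without young heart 15, Slc25a27 was past the limits and higher (1.32 ± 0.30, SE, edgeR adjusted p = 0.0165).

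Among carriers with no settled substrate or another role, Slc25a34 had the largest negative log2 fold change of the family. It read 147, 124 and 16.8 CPM in young hearts 3, 13 and 15 and 2.04, 14.3 and 7.63 CPM in aged hearts 3, 4 and 7. Young heart 15 lay near aged heart 4, well below the other young hearts, and the groups did not overlap. The log2 fold change was -3.59 ± 1.01 (SE, edgeR adjusted p = 0.0923).
Its close relative Slc25a35 was at 3.68 to 9.74 CPM in young and 2.18 to 2.53 CPM in aged hearts (-1.70 ± 0.42, SE, edgeR adjusted p = 0.0916). The Slc25a35 span overlaps Rangrf on the opposite strand by 42 bases, and Rangrf had 479 to 1420 reads. Slc25a46, an outer membrane protein of mitochondrial shape, read 66.2, 76.9 and 42.3 CPM in young hearts 3, 13 and 15 and 33.1, 33.6 and 41.3 CPM in aged hearts 3, 4 and 7. Young heart 15 and aged heart 7 were almost level, and the log2 fold change was -0.78 ± 0.26 (SE, edgeR adjusted p = 0.104). It was not past the limits without young heart 3, young heart 13, aged heart 3 or aged heart 4 (-0.73, -0.59, -0.72 and -0.72), and it shares 183 bases with Sap130 on the other strand.
Slc25a43 had the largest positive log2 fold change. It read 0.605, 0.763 and 4.54 CPM in young hearts 3, 13 and 15 and 11.1, 6.79 and 6.74 CPM in aged hearts 3, 4 and 7. Young heart 15 was far above the other young hearts and below all aged hearts. The log2 fold change of 2.03 ± 0.80 (SE, edgeR adjusted p = 0.134) was not past the limits when any heart but young heart 15 was left out, with 1.61 to 2.16, and it was 3.62 without young heart 15 (edgeR adjusted p = 0.00203). Slc25a43 lies 19.7 kb from Slc25a5 on the X chromosome with no gene between them in the table, and Slc25a5 was not past the limits. Slc25a45 was not past the limits (-0.21). Slc25a47, Slc25a48 and Slc25a54 reached at most 0.191 CPM and were not tested, so that with Slc25a18, Slc25a21, Slc25a31 and Slc25a41 the untested members were 7, of which 6 had fewer than 10 reads in every heart.

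Most calls were lost, and fold changes became smaller, when the level of cardiomyocyte markers was fitted along with the group. With the mean log2 CPM of the 12 markers as a covariate, 2 members were lower past the limits (Slc25a23 at -0.97 ± 0.24 and Slc25a26 at -1.40 ± 0.41, SE) and 1 was higher (Slc25a37 at 0.98 ± 0.38, SE), each with an edgeR adjusted p of 0.684, while over all genes 3.63% were lower and 2.97% higher past the limits. All 16 lower members kept a negative sign, and their median log2 fold change went from -2.02 to -1.14 while the median SE went from 0.55 to 0.73. The fold change kept 20.2 to 89.5% of its size on the log2 scale, at least 50% in 10 of the 16. Slc25a35 went from -1.70 to -1.52, Slc25a40 from -0.76 to -0.60, Slc25a36 from -1.0 to -0.73 and Slc25a13 from -2.31 to -1.45, and none of these was past the limits in that fit. In that fit the log2 fold change of Slc25a4 was -1.10 ± 0.89 (SE, edgeR adjusted p = 0.694), that of Slc25a3 was -1.02 ± 0.74 (SE, edgeR adjusted p = 0.686) and that of Slc25a42 was -0.01 ± 0.40 (SE, edgeR adjusted p = 0.998). The summed marker level did not overlap between the groups, so donor age and cardiomyocyte RNA content cannot be told apart in these 6 hearts.

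Genes of the family that carry other names gave mixed values. Mtch2, an outer membrane insertase, read 165, 191 and 72.6 CPM in young hearts 3, 13 and 15 and 47.5, 66.5 and 57.4 CPM in aged hearts 3, 4 and 7, without overlap (log2 fold change -1.32 ± 0.38, SE, edgeR adjusted p = 0.0927). Its relative Mtch1 was at 221 to 233 CPM in young and 195 to 243 CPM in aged hearts (-0.04). The uncoupling protein Ucp2 was past the limits and lower at 374 to 895 against 333 to 385 CPM (-0.97 ± 0.38, SE, edgeR adjusted p = 0.132), its groups overlapping through young heart 15. Ucp3, the muscle form, ranged from 2.81 to 38.2 CPM in young and from 0.0985 to 9.25 CPM in aged hearts and was not past the limits (-2.10 ± 1.42, SE, edgeR adjusted p = 0.308). The FPKM ratio of Ucp2 to Ucp3 overlapped between the groups (exact permutation test, p = 0.5, adjusted 0.5), with 3 reads of Ucp3 in aged heart 3. Ucp1, the brown fat form, had no read in any heart.

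Carrier proteins reach the inner membrane by a dedicated import route. Of its 15 tested genes 14 were not past the limits, where 19% of all genes were lower and 13.2% higher past them. The other 1 was lower, the chaperone gene Timm10, at 19.9 to 53.9 CPM in young and 13.4 to 25.4 CPM in aged hearts (-1.11 ± 0.44, SE, edgeR adjusted p = 0.134), and the median log2 fold change was -0.20. Of 23 other transporter genes of the mitochondrial membranes tested, 10 were lower and 2 higher past the limits (19% and 13.2% of all genes), with a median of -0.27. Those with the smallest p-values were Tspo, a cholesterol-binding outer membrane protein (54.4 to 93.9 against 139 to 179 CPM, log2 fold change 1.19), Slc8b1, the sodium-calcium-lithium exchanger (16.5 to 39.8 against 61.3 to 85.8 CPM, 1.5), and the subunits of the pyruvate carrier, Mpc2 (46.8 to 181 against 25.3 to 38.9 CPM, -2.06) and Mpc1 (98.2 to 572 against 43.7 to 87.2 CPM, -2.44). In each of these 4 genes, which were chosen by p-value, the groups did not overlap, and edgeR gave adjusted p-values of 0.0916 to 0.0923. Of the 23 tested, all aged hearts lay below all young hearts in 8 and above them in 4, against 20.6% and 21% of all genes.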

How the data were processed

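The authors deposited 1 table of raw read counts per gene and of FPKM values for the 6 hearts. The labels name HISAT2 2.0.5, StringTie 1.3.3b, featureCounts 1.5.0-p3, DESeq2 1.16.1 and GATK 3.7 and the build Rnor_6.0, and the use of strand and of reads with several matches is not given in the sources used here. The deposited FPKM equalled count over gene length and library total in all but 1 of 133500 values, within a relative tolerance of 0.001. Members and gene lists were chosen with earlier results of these data known. Counts were filtered by edgeR's filterByExpr, scaled by TMM and tested by glmQLFit and glmQLFTest (R 4.3.3, edgeR 4.0.16) on all genes, with Benjamini-Hochberg adjusted p-values. Standard errors were taken as log2 fold change over root F. Alternatives used DESeq2 1.42.0 and limma 3.58.1, and the steps were tested on simulated data. 1 member is not reported here by name and is left out of the plots by gene, but stays in the counts. Full values are given for the other members past the limits with a mean of at least 10 FPKM in either group, for the largest fold change in each direction and for 13 members of known role. Other values given were chosen after they were seen. The labels name animals but not litters or batches. Counts of young hearts 3 and 13, the closest pair, were further apart than sampling noise, with chi-square over degrees of freedom at 10.1.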

Additional observations from a re-analysis of the deposited data

How the results depend on the processing

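The 16 lower and 4 higher members were also called by DESeq2 (17 and 4), limma-voom (18 and 6), DESeq2 size factors (16 and 4), no filter on low counts (19 and 4) and a mean of at least 1 CPM (17 and 4), each set including all of the original members. The share of all genes called in these fits stands beside the counts above. Library totals alone gave 9 higher. The cardiomyocyte covariate gave 2 lower and 1 higher, an adjusted p-value under 0.05 gave 0 and 0, and one under 0.1 gave 13 and 1. The share of all genes under 0.1 was not counted. The smallest edgeR adjusted p-value of any gene was 0.0916, close to that limit. Leaving out each heart in turn gave 10 to 19 lower and 1 to 7 higher, with the fewest lower without aged heart 3 and the most without young heart 15. Leaving out young heart 15 and aged heart 3 together, an alternative chosen after seeing the data, gave 19 and 7. Across leave-one-out fits, the difference in log2 ratio ran from 2.12 to 3.60 for Slc25a5/Slc25a4, from -0.41 to -0.31 for Slc25a13/Slc25a12, from -1.17 to -0.74 for Slc25a28/Slc25a37, from 3.74 to 6.2 for Slc25a24/Slc25a23, from -3.54 to -2.14 for Slc25a18/Slc25a22, which rests on 0 to 7 reads of Slc25a18 and cannot be compared, and from -0.026 to 2.29 for Ucp2/Ucp3, which changed sign without aged heart 3. With 1 FPKM added, Slc25a18/Slc25a22 moved from -2.64 to -0.89 and Ucp2/Ucp3 from 1.49 to 0.68. The difference in family share, 0.454 percentage points, ran from 0.356 to 0.647. Of 375 values for 25 named members over 15 alternatives, 53 were no longer past the limits and 8 became so, and no value that was past the limits in either fit changed sign. Slc25a10, at 0.17 with library totals, and Slc25a5, at -0.10 without aged heart 4 and 0.0 in limma-voom, were not past the limits and did change sign or reach 0. The causes were not tested. No paired analysis was possible because only the number 3 occurs in both groups and it marks different animals. Members under about 10 reads were below what this depth can compare.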
